A study of Homo sapiens with 24 samples.

Results

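Collagens are the structural proteins of the extracellular matrix, and their genes were followed here as a set in newly made RNA. The set was every protein-coding gene in GENCODE release 44 whose symbol is COL, a number, A and a number, which gave 44 of the 61533 genes in the count table. Of these, 11 are fibrillar collagens and 33 belong to the other classes. A low-count filter (at least 10 counts in enough libraries) left 32 of the 44 for testing over time, of which 9 were fibrillar and 23 were not.

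RNA was labelled with 200 µM 4-thiouridine (4sU) during the last 1 h of treatment in U2OS cells, a human osteosarcoma line, and the labelled RNA was captured and sequenced. All 3 lines stably carried the glucocorticoid receptor (GR) with a C-terminal HaloTag, a protein tag that takes up a fluorescent dye, from a CMV promoter on a PiggyBac vector. They were selected with puromycin and sorted by dye signal. The wt line carried unmutated GR, the SoF line GR with K492A, which weakens RNA binding and, less so, DNA binding, and the Ctrl line GR with R470A, made to match the loss of DNA binding in SoF. In each line, cells were given either the synthetic glucocorticoid dexamethasone (100 nM; 1, 2 or 3 h) or the solvent, 0.01% ethanol (called 0 h), with 2 libraries per line and time and 24 in all. Each line was a single sorted pool, so an effect of the construct and an effect of the pool cannot be told apart. All comparisons over time within a line share the same 2 ethanol libraries. No ethanol libraries were made for each dexamethasone time, and the paper states that the medium was replaced at treatment. Effects of dexamethasone and of time since that change of medium therefore cannot be told apart.

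A collagen molecule is a rope of alpha chains, each built from repeats of glycine followed by other residues, often proline. Fibrillar collagens pack side by side into fibrils that give bone, skin and tendon their strength. Network collagens such as type IV form the sheets of basement membranes, type VI makes beaded filaments around cells, and FACITs (fibril-associated collagens) decorate fibril surfaces. Chains are hydroxylated and glycosylated in the endoplasmic reticulum, exported, trimmed by propeptidases and cross-linked. Bone-forming osteoblasts chiefly make type I collagen from COL1A1 and COL1A2 chains, and glucocorticoids are known to affect matrix genes in bone and skin.

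Total exon counts lay between 8106036 and 15820806 per library, and collagens took 681902 counts over the 24 libraries. Of 7 osteoblast lineage markers, RUNX2 (51.5 to 158 CPM, counts scaled to library size, over the 24 libraries) and ALPL (8.07 to 44 CPM) were present, BGLAP and SPP1 reached at most 1.32 and 3.12 CPM, and SP7, IBSP and DLX5 had a median of 0 and at most 0.172, 0.106 and 0.081 CPM. Of 2 chondrocyte markers, SOX9 was abundant (median 359 CPM). The other, ACAN, was low at 0 h, with group means of 4.45 CPM in wt, 5.44 in SoF and 5.04 in Ctrl. In bulk RNA, fewer cells making a transcript and less transcript per cell cannot be told apart.

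COL1A1, the main chain of type I collagen, had the highest mean level among the collagens (ENSG00000108821.14, chromosome 17, 50184101 to 50201632, minus strand, hg38). Levels of different genes were compared as CPM per kilobase of annotated exon. COL1A1 had a mean of 62.3 CPM per kilobase over the 24 libraries, with a range of 27.7 to 112. It was followed by the FACIT COL12A1 at 28.6 (18 to 37.5), the type VI chain COL6A3 at 13.5 (4.23 to 36.4), the type IV chain COL4A2 at 12.8 (8.13 to 21) and the type V chain COL5A1 at 10.8 (7.96 to 17.7 CPM per kilobase). Neighbouring ranges overlapped throughout, and the order was not fixed across libraries. COL12A1 stood above COL1A1 in 2 of the 24 libraries, SoF replicate 2 at 0 h (36.6 against 31.6 CPM per kilobase) and SoF replicate 2 at 1 h (34.8 against 27.7). COL6A3 stood above COL12A1 in 0 of the 6 libraries at 0 h and in 5 of the 6 at 3 h. These 5 genes held 74.1% of all collagen counts.

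COL1A2, the partner chain of COL1A1 in ordinary type I collagen, was nearly absent. It had 0 to 8 counts per library and a mean of 0.257 CPM, and per kilobase COL1A1 stood 2625-fold above it. Every library was under the filter's 10 counts, 1 of them at 0, so COL1A2 was not tested for change. The cartilage fibril gene COL2A1 was similarly low, with 1 to 9 counts per library. The 12 members that did not pass the filter had means between 0.0136 and 0.51 CPM, and none exceeded 0.885 CPM in any library. The lowest was the FACIT chain COL9A1, with 4 counts in all and 20 libraries at 0.

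**Figure D1:**
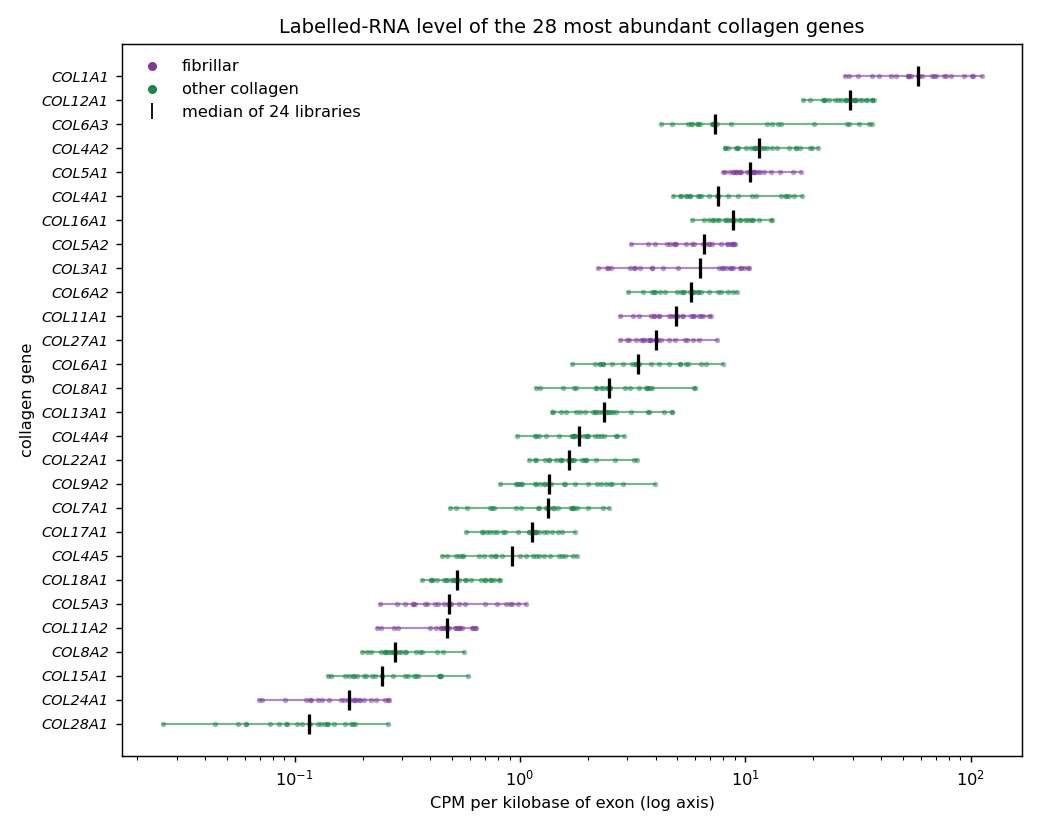
Level of the 28 most abundant collagen genes in CPM per kilobase of exon (log axis), with a point for each of the 24 libraries, a line from lowest to highest and a black mark at the median. COL1A1 stands at the top with a range of 27.7 to 112, and COL6A3 has one of the widest spans, from 4.23 to 36.4.

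After 3 h of dexamethasone the collagens moved in both directions: COL6A3, COL4A1 and COL13A1 rose in all 3 lines, and COL3A1, COL5A2 and COL4A5 fell in all 3. Averaged over the lines, 21 of the 32 members tested passed (12 higher, 9 lower; 65.6%, where 40.3% of the 23651 genes tested passed, 20.9% higher and 19.3% lower), by the edgeR quasi-likelihood test with Benjamini-Hochberg adjusted p under 0.05, the rule for every call here. The balance of directions turned with a correction for GC content, described further on, which gave 8 higher and 11 lower. Among fibrillar members 3 rose and 3 fell of 9 tested, and among the others 9 rose and 6 fell of 23. The median change of the 32 members was 0.02 on the log2 scale and that of all genes -0.03, while the median absolute change was 0.55 for members and 0.33 for all genes.

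Within single lines at 3 h, 7 members passed in wt (3 higher, 4 lower; of all genes tested 10.7% passed, 6.6% higher and 4.12% lower), 15 in SoF (8 higher, 7 lower; background 19.3%, with 11.2% higher and 8.11% lower) and 16 in Ctrl (11 higher, 5 lower; background 14.2%, with 8.58% higher and 5.6% lower). The wt count was 3 without either 0 h replicate and 4 without replicate 2 at 3 h. In SoF, leaving out replicate 2 of 0 h gave 6 calls and leaving out replicate 1 of 3 h gave 8. In Ctrl the same omissions gave 7 and 9. Over the same fits that left out 1 library, the average over the lines, which rests on more libraries, kept 19 to 23 calls. Same-numbered 0 h libraries deviated together across the lines (correlations of 0.39 to 0.57), while the average takes them as independent.

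**Figure D2:**
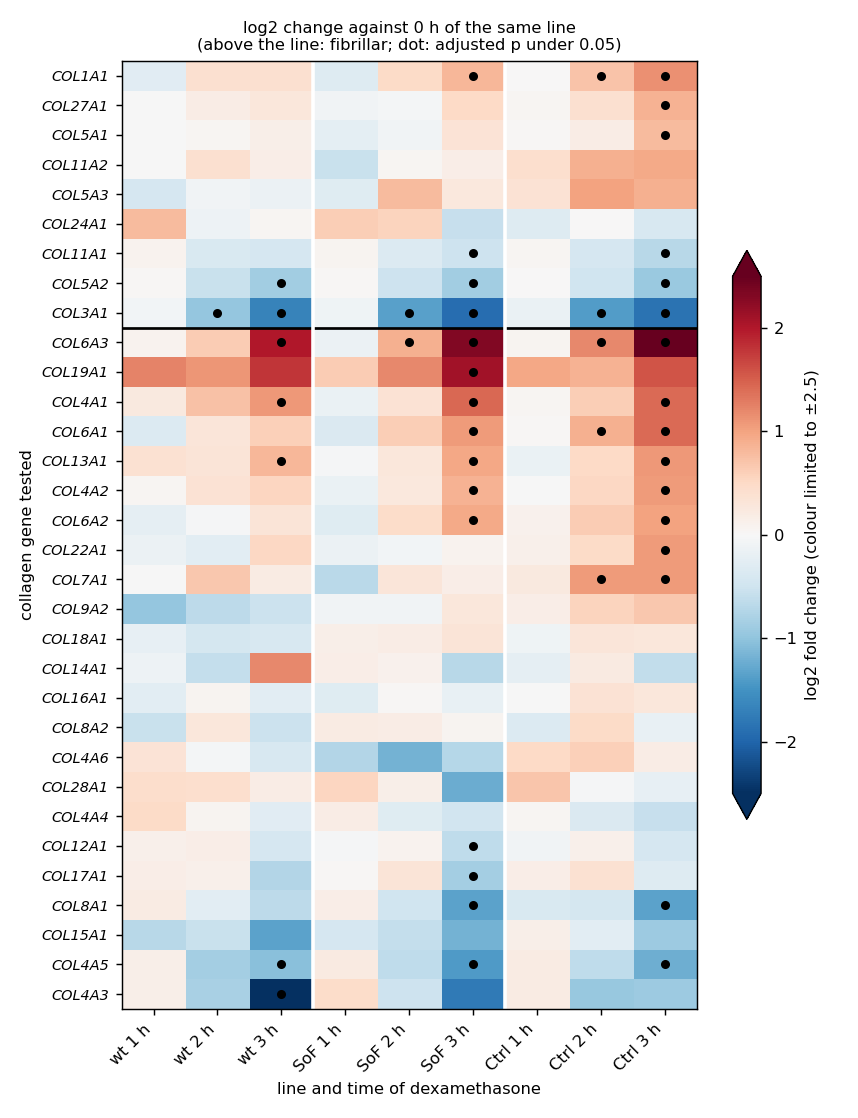
Fitted log2 changes against 0 h of the same line (colour, limited to ±2.5) for the 32 collagen genes tested, with fibrillar genes above the black line and a dot where the adjusted p was under 0.05. Both red and blue appear in each class, and COL3A1 and COL6A3 carry the most dots.

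COL3A1, which makes the homotrimeric type III fibrils of skin and vessels, showed the clearest fall (ENSG00000168542.16, chromosome 2, 188974373 to 189012746, plus strand). Its 0 h libraries held 59.5 and 58.3 CPM in wt, 55.6 and 70.0 in SoF, and 64.5 and 69.8 in Ctrl. At 3 h the values were 21.9 and 15 CPM in wt, 16.4 and 17.1 in SoF, and 16.6 and 20.9 in Ctrl. Every 3 h library lay below every 0 h library. The gene was 3.19-fold lower in wt (log2 change -1.67, SE 0.20, adjusted p 8.70e-06 by edgeR), 3.74-fold lower in SoF (-1.90, SE 0.20, adjusted p 1.27e-06) and 3.59-fold lower in Ctrl (-1.84, SE 0.20, adjusted p 3.32e-06). These calls held without any 1 library.

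COL5A2, a type V chain that helps start fibrils, lies tail to tail with COL3A1 on chromosome 2 at a distance of 19.2 kb (189031898 to 189225312, minus strand). It fell from 60.5 and 65.3 to 35.6 and 32.8 CPM in wt. In SoF it fell from 57.1 and 65.7 to 27.0 and 39.9 CPM, and in Ctrl from 48.4 and 50.4 to 22.7 and 29.2 CPM. The 0 h and 3 h libraries did not overlap in any line, and the log2 changes were -0.88 (SE 0.17), -0.88 (SE 0.18) and -0.93 (SE 0.18), with adjusted p of 0.00189, 0.00123 and 0.00133 by edgeR. The SoF call was lost without replicate 1 at 3 h, where the change was -0.62.

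COL1A1 went the other way. In Ctrl its 0 h libraries held 548 and 329 CPM and its 3 h libraries 925 and 1008 CPM, a 2.20-fold rise (log2 change 1.14, SE 0.21, adjusted p 0.000766 by edgeR). In SoF it rose from 354 and 285 to 532 and 606 CPM, a 1.78-fold rise (0.83, SE 0.21, adjusted p 0.00653), but this call was lost when replicate 2 of either time was left out. In wt the values were 631 and 525 CPM at 0 h and 620 and 910 CPM at 3 h, which overlap, and the change did not pass (0.40, SE 0.20, adjusted p 0.225). Averaged over the lines, COL1A1 rose by 0.79 (SE 0.12, adjusted p 1.55e-05 by edgeR).

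COL5A1, the type V chain that pairs with COL5A2 in the common type V molecule, did not follow its partner (ENSG00000130635.16, chromosome 9, 134641803 to 134844843, plus strand). It rose in Ctrl, from 119 and 99.0 to 198 and 181 CPM (log2 change 0.79, SE 0.19, adjusted p 0.00778 by edgeR), a call lost without replicate 2 at 0 h or replicate 1 at 3 h. In SoF it stood at 116 and 106 CPM at 0 h and 145 and 135 CPM at 3 h, and in wt at 118 and 107 CPM at 0 h and 91.1 and 159 CPM at 3 h. Those changes of 0.34 (SE 0.19) and 0.15 (SE 0.19) did not pass, and the wt change turned to -0.30 without replicate 2 at 3 h. COL5A3, the remaining type V chain, had changes of -0.16 (SE 0.38) in wt, 0.27 (SE 0.39) in SoF and 0.90 (SE 0.37) in Ctrl, none of which passed.

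COL27A1, a fibrillar collagen of cartilage, rose in Ctrl from 56.1 and 49.6 to 105 and 87.5 CPM (log2 change 0.86, SE 0.19, adjusted p 0.00352 by edgeR), and this call was lost without replicate 2 at 0 h or replicate 1 at 3 h. COL11A2 and COL24A1 passed in no line.

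The type IV genes sit as head-to-head pairs, and COL4A1 with COL4A2 was the pair with both members called. COL4A1 and COL4A2, the chains found in nearly all basement membranes, are transcribed away from each other on chromosome 13 (COL4A1 110148963 to 110307157, minus strand; COL4A2 110305812 to 110513209, plus strand). Their RefSeq promoter windows (250 bases before to 50 after the start, GRCh38.p14) overlap by 226 bases. They are shown because this start region serves both genes, and both rose in the average over the lines at 3 h. Capitals mark CCAAT or its complement ATTGG, and the motif printed in both is the same genomic site read from opposite strands. The COL4A1 window is chr13:110307108-110307407, minus strand, and the COL4A2 window is chr13:110307034-110307333, plus strand.

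COL4A1: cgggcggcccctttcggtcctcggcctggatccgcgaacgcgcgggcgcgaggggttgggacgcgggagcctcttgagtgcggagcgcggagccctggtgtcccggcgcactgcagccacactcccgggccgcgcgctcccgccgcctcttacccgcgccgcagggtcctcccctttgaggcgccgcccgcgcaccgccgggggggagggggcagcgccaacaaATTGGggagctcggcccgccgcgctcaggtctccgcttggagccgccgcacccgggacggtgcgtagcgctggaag

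COL4A2: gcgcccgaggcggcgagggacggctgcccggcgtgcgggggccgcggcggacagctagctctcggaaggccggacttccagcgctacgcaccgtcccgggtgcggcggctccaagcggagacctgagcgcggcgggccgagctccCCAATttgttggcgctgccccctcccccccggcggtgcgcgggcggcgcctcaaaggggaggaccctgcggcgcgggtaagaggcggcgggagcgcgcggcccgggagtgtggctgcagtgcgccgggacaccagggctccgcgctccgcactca

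COL4A1 rose at 3 h in all lines. In SoF it went from 80.6 and 83.2 to 222 and 222 CPM, in Ctrl from 111 and 76.2 to 263 and 240 CPM, and in wt from 91.3 and 90.6 to 157 and 230 CPM. All 3 h libraries lay above all 0 h libraries. The log2 changes were 1.44 (SE 0.28, adjusted p 0.00101) in SoF, 1.42 (SE 0.28, adjusted p 0.00164) in Ctrl and 1.09 (SE 0.28, adjusted p 0.0130) in wt, by edgeR. The wt call was lost without either 0 h replicate or replicate 2 at 3 h, and the Ctrl call without replicate 2 at 0 h.

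COL4A2 rose in SoF (178 and 175 CPM at 0 h, 324 and 323 CPM at 3 h) and in Ctrl (215 and 162 CPM at 0 h, 404 and 383 CPM at 3 h). The log2 changes were 0.87 (SE 0.18, adjusted p 0.00175 by edgeR) and 1.06 (SE 0.18, adjusted p 0.000491). In wt the libraries held 229 and 213 CPM at 0 h and 266 and 373 CPM at 3 h, without overlap, but the change of 0.53 (SE 0.18) did not pass (adjusted p 0.063 by edgeR). It passed with DESeq2 in place of edgeR, without the low-count filter, and without replicate 1 at 3 h, where the change was 0.76.

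COL4A5, whose loss causes the kidney disease Alport syndrome, fell in all lines and lies 340 bases from its pair COL4A6 on chromosome X. Its libraries went from 13.6 and 15.2 to 7.82 and 6.15 CPM in wt, from 11.9 and 20.4 to 5.65 and 6.36 in SoF, and from 9.93 and 18.7 to 5.35 and 6.66 in Ctrl. No 3 h library reached any 0 h library. The log2 changes were -1.04 (SE 0.29, adjusted p 0.0240 by edgeR), -1.41 (SE 0.30, adjusted p 0.00216) and -1.23 (SE 0.31, adjusted p 0.00931). The wt call was lost on leaving out any 1 of its 4 libraries, the SoF call without replicate 2 at 0 h, and the Ctrl call without replicate 2 of 0 h (-0.73) or replicate 1 of 3 h (-1.08). COL4A6 was low, with a mean of 0.652 CPM, and its changes of -0.39 (SE 0.61), -0.72 (SE 0.73) and 0.18 (SE 0.76) did not pass. The COL4A5 window (chrX:108439588-108439887, plus strand, RefSeq, GRCh38.p14) is shown as the start region of a member that fell, for comparison with COL4A1. It holds the CCAAT motif on both strands, again in capitals.

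COL4A5: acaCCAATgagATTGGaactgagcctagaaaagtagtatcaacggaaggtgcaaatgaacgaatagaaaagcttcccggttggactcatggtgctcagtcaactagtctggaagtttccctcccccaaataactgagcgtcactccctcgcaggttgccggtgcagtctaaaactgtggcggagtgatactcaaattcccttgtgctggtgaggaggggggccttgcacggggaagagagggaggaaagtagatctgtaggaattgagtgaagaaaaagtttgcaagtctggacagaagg

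COL4A3 and COL4A4, the further pair of Alport genes on chromosome 2, are 170 bases apart. COL4A3 was rare, with 19 and 18 counts in the wt libraries at 0 h and 0 and 4 counts at 3 h. Its fitted change in wt was -3.12 (SE 0.83, adjusted p 0.0175 by edgeR) and rested on few counts, since the call was lost without either 0 h replicate or without replicate 1 at 3 h. In SoF and Ctrl its changes of -1.76 (SE 0.71) and -0.90 (SE 0.68) did not pass. COL4A3 also shares 6.82% of its exon bases with MFF-DT on the opposite strand. COL4A4 was more abundant (11.4 to 34.2 CPM) and its changes of -0.28 (SE 0.32), -0.49 (SE 0.32) and -0.57 (SE 0.32) did not pass.

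The 3 type VI chains that passed the filter rose, and COL6A3 showed the largest rise among members with a mean of at least 1 CPM. COL6A3, the longest type VI chain (ENSG00000163359.17, chromosome 2, 237324003 to 237414328, minus strand), held 124 and 154 CPM in wt at 0 h and 434 and 685 CPM at 3 h. In SoF it went from 91.0 and 155 to 621 and 606 CPM, and in Ctrl from 135 and 132 to 783 and 762 CPM. The highest 0 h library, at 155 CPM, lay far below the lowest 3 h library, at 434 CPM. The gene was 4.02-fold higher in wt (log2 change 2.01, SE 0.26, adjusted p 3.70e-05 by edgeR), 5.01-fold higher in SoF (2.32, SE 0.27, adjusted p 3.55e-06) and 5.79-fold higher in Ctrl (2.53, SE 0.27, adjusted p 3.03e-06). These calls held without any 1 library. Its start region is printed for the size of this change (chr2:237414115-237414414, minus strand, RefSeq, GRCh38.p14), and none of the 4 motifs searched (given further on) was in it.

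COL6A3: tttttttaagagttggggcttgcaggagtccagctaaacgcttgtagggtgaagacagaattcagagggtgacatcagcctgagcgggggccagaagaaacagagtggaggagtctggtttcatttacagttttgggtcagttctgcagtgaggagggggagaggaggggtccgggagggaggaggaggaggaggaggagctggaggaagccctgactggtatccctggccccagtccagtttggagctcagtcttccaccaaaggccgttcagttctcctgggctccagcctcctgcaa

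COL6A1 and COL6A2, the shorter type VI chains, lie 93.1 kb apart in the same orientation on chromosome 21. COL6A1 rose in Ctrl from 17.4 and 13.0 to 37.2 and 44.2 CPM (log2 change 1.41, SE 0.25, adjusted p 0.000735 by edgeR). In SoF it rose from 18.7 and 12.5 to 30.9 and 35.1 CPM (1.07, SE 0.25, adjusted p 0.00475), a call lost without replicate 2 at 0 h. COL6A2 rose by 1.00 (SE 0.21, adjusted p 0.00314) in Ctrl and 0.94 (SE 0.21, adjusted p 0.00341) in SoF. The Ctrl call of COL6A2 was lost without replicate 2 at 0 h or replicate 2 at 3 h. In wt neither passed: COL6A1 held 17.9 and 14.2 CPM at 0 h and 18 and 30.3 at 3 h (0.59, SE 0.25), and COL6A2 33.0 and 27.7 CPM at 0 h and 31.7 and 44.5 at 3 h (0.33, SE 0.21). COL6A5 and COL6A6 were too low to test.

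**Figure D3:**
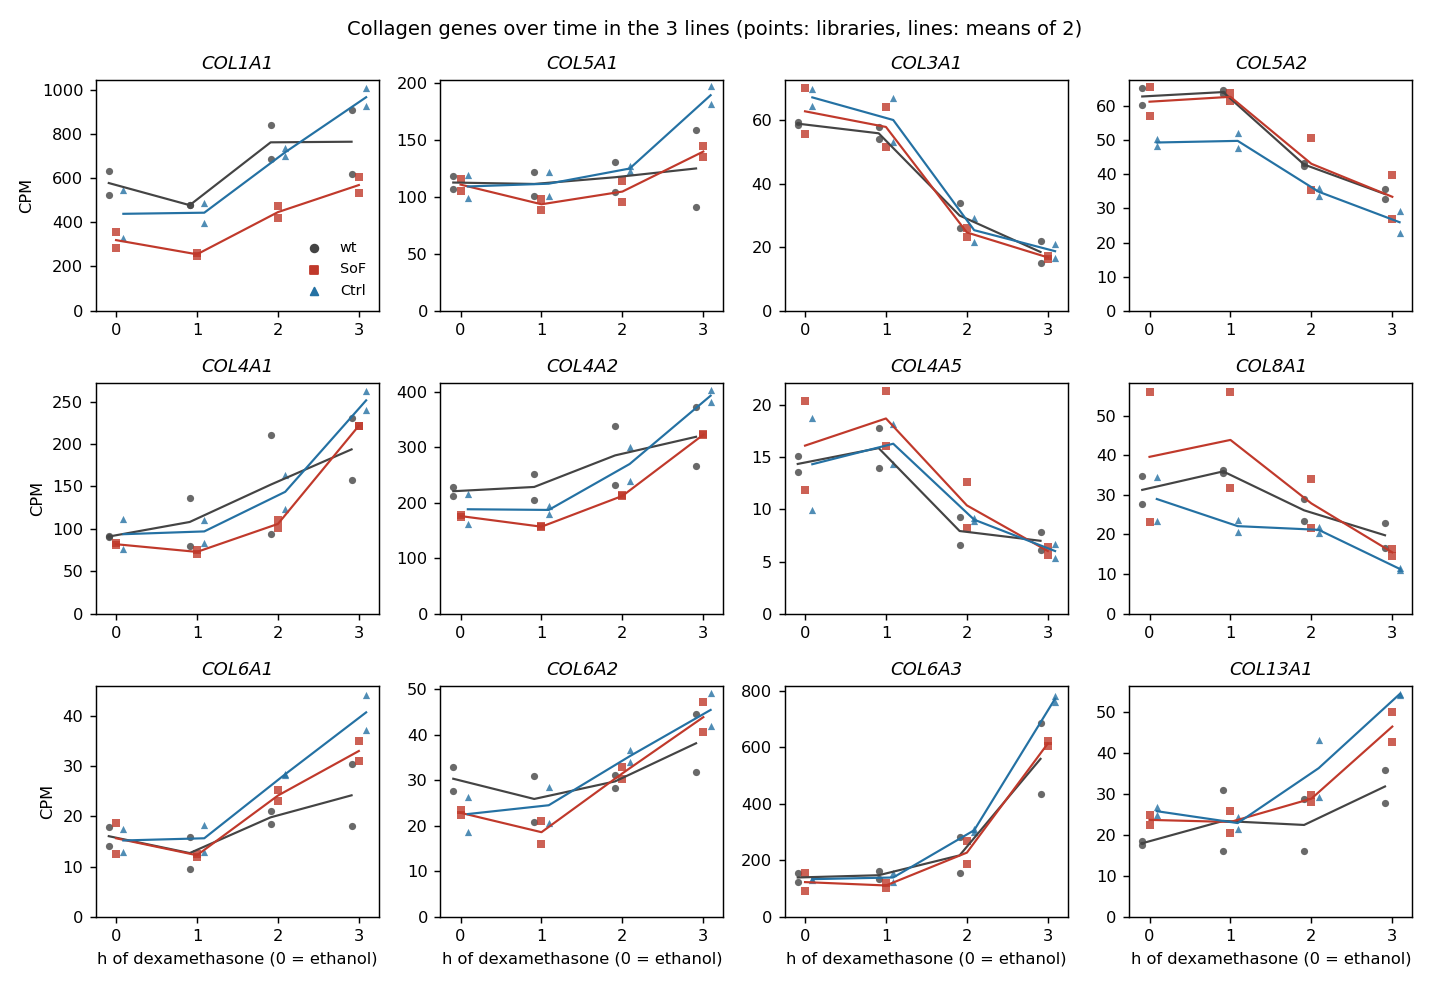
CPM against hours of dexamethasone for 12 collagen genes, with a point for each library, a line through the mean of 2 and colours for the wt, SoF and Ctrl lines. COL6A3 climbs steeply between 2 and 3 h to between 434 and 783 CPM, and COL3A1 is already lower at 2 h in every line.

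Among the other classes, COL13A1, a transmembrane collagen of cell junctions, rose in all lines. It went from 18.4 and 17.5 to 27.9 and 35.7 CPM in wt, from 24.9 and 22.4 to 50.1 and 42.7 in SoF, and from 24.8 and 26.7 to 54.4 and 54.2 in Ctrl, with every 3 h library above every 0 h library. The log2 changes were 0.83 (SE 0.26, adjusted p 0.0400 by edgeR), 0.97 (SE 0.25, adjusted p 0.00956) and 1.08 (SE 0.25, adjusted p 0.00633). The wt call was lost without either 0 h replicate, without replicate 2 at 3 h, and in a fit on the 8 wt libraries alone. The SoF call was lost on omitting replicate 2 of 0 h (0.90) or replicate 1 of 3 h (0.85), and the Ctrl call held.

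COL8A1, a short-chain network collagen of vessel walls, fell in SoF and Ctrl. It held 23.2 and 55.9 CPM in SoF at 0 h, a wide spread, and 14.5 and 16.4 CPM at 3 h (log2 change -1.34, SE 0.32, adjusted p 0.00459 by edgeR). Without replicate 2 at 0 h or replicate 1 at 3 h the SoF call was lost, and the change was -0.59 and -1.26 respectively. In Ctrl it fell from 23.5 and 34.4 to 11.1 and 11.53 CPM (-1.34, SE 0.33, adjusted p 0.00811), a call kept only when the library omitted was replicate 1 of 0 h. In wt it held 27.6 and 34.9 CPM at 0 h and 23.0 and 16.6 at 3 h, and its change of -0.66 (SE 0.31) did not pass.

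COL12A1, the second most abundant member, fell in SoF from 487 and 690 to 339 and 421 CPM (log2 change -0.63, SE 0.19, adjusted p 0.0208 by edgeR), a call lost on omitting replicate 2 of 0 h (-0.36) or replicate 1 of 3 h (-0.49). Its changes of -0.42 (SE 0.19) in wt and -0.43 (SE 0.19) in Ctrl did not pass, and over all 3 lines the 3 h libraries (339 to 446 CPM) lay below the 0 h libraries (474 to 690 CPM). COL7A1, which builds the anchoring fibrils under the epidermis, rose in Ctrl from 5.43 and 6.48 to 13.5 and 11.3 CPM (1.07, SE 0.28, adjusted p 0.0121), a call lost on omitting either 0 h library or replicate 1 of 3 h. It stood at 19.1 and 14.5 CPM at 0 h and 16.4 and 22.4 at 3 h in wt, which overlap, and at 14.7 and 15.8 then 14.9 and 19.3 CPM in SoF.

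The 5 members called in the average over the lines that are not yet described are named here after their values were seen. COL11A1, a minor fibrillar chain, changed by -0.55 (SE 0.10), COL15A1, a basement membrane zone collagen, by -1.14 (SE 0.27), and COL17A1, the transmembrane collagen of hemidesmosomes, by -0.63 (SE 0.17). The FACITs COL19A1 and COL22A1 changed by 1.82 (SE 0.45) and 0.56 (SE 0.18). COL19A1 had a mean of only 0.573 CPM, with 1 to 6 counts in the 0 h libraries, and lost its call on omitting Ctrl replicate 2 of 3 h (1.35). COL22A1 lost its call on omitting wt replicate 1 of 0 h, wt replicate 2 of 3 h (0.30), SoF replicate 2 of 3 h, Ctrl replicate 1 of 0 h or Ctrl replicate 2 of 3 h. The average call of COL7A1 was lost on omitting wt replicate 2 of 3 h (0.41). In single lines at 3 h, COL11A1 passed in SoF and Ctrl, COL17A1 and COL19A1 in SoF only, COL22A1 in Ctrl only and COL15A1 in no line. The calls of COL17A1 and COL22A1 were lost on omitting any 1 of the 0 h or 3 h libraries of that line. Those of COL11A1 (-0.37 in SoF, -0.40 in Ctrl) and COL19A1 (1.53) were lost on omitting replicate 2 of 0 h, among others.

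Because related chains moved unequally, some of their ratios shifted between 0 h and 3 h. The ratio of COL6A3 to COL6A1 per kilobase was 1.25 to 3.17 in the 6 libraries at 0 h and 4.43 to 6.19 in the 6 at 3 h. That of COL4A1 to COL4A2 was 0.523 to 0.679 at 0 h and 0.777 to 0.903 at 3 h, so the pair came nearer to equal levels per kilobase of annotated exon. The ratio of COL5A1 to COL5A2 was 1.06 to 1.62 and then 1.68 to 5.70. COL1A1 exceeded COL3A1 by 3.05 to 7.96 times at 0 h and by 21.2 to 45.5 times at 3 h. None of these 4 ranges overlapped between 0 h and 3 h. Those of COL6A2 to COL6A1 (1.30 to 2.03, then 1.15 to 1.83) and of COL1A1 to COL5A1 (3.34 to 6.62, then 4.54 to 8.43) did, as did those of COL4A5 to COL4A6. How often the ratios of other gene pairs separate in this way was not tested. The ratios are without the GC offset described further on. That offset lowered the average log2 change of COL5A1 from 0.43 to 0.12 and of COL1A1 from 0.79 to 0.47. With it, COL5A2 and COL3A1 changed by -0.88 and -1.90.

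All 44 members together took 0.212% ± 0.00944 of counts in wt at 0 h and 0.274% ± 0.0497 at 3 h (SD, n = 2). In SoF the share was 0.201% ± 0.0271 and then 0.274% ± 0.00462, and in Ctrl 0.205% ± 0.00399 and then 0.354% ± 0.0116 (SD, n = 2). COL6A3 alone went from 6.4% ± 1.51 to 19.8% ± 2.38 of collagen counts in wt, from 6.34% ± 1.8 to 22.7% ± 1.2 in SoF and from 6.58% ± 0.326 to 21.9% ± 0.519 in Ctrl (SD, n = 2). The fibrillar share of collagen counts was 42.1% ± 0.115 and 37.3% ± 2.08 in wt, 35.3% ± 4.80 and 32.7% ± 0.774 in SoF, and 37.7% ± 5.10 and 37.9% ± 1.14 in Ctrl.

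At 1 h no collagen passed in any line, by edgeR or by DESeq2. The background at 1 h was small too, at 0.156% of genes in wt, 0.165% in SoF and 0.0465% in Ctrl. An unadjusted p under 0.05 was met by 1 of the 32 members in wt, 1 in SoF and 0 in Ctrl, and by 11%, 6.96% and 1.79% of all genes tested. COL3A1, for example, held 57.8 and 53.9 CPM in wt at 1 h against 59.5 and 58.3 at 0 h.

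At 2 h, 1 member passed in wt (background 4.6%), 2 in SoF (background 5.68%) and 5 in Ctrl (background 7.95%). COL3A1 fell in every line, to 33.9 and 26 CPM in wt (log2 change -0.97, SE 0.19, adjusted p 0.00437 by edgeR), 23.1 and 26.2 CPM in SoF (-1.35, SE 0.20, adjusted p 0.00014) and 21.7 and 29.0 CPM in Ctrl (-1.40, SE 0.20, adjusted p 0.000112). The wt call was lost without replicate 2 at 2 h, which left a wt count of 0, and the wt count was 3 without replicate 1 at 2 h. COL6A3 rose in Ctrl to 311 and 302 CPM (1.201, SE 0.26, adjusted p 0.00573) and in SoF to 186 and 268 CPM (0.89, SE 0.26, adjusted p 0.0441). The SoF call of COL6A3 was lost without replicate 1 at 0 h or replicate 2 at 2 h, and the Ctrl call without replicate 2 at 0 h.

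COL7A1, COL6A1 and COL1A1 also rose in Ctrl at 2 h, by 1.06 (SE 0.28), 0.89 (SE 0.25) and 0.71 (SE 0.21) on the log2 scale, each with a call kept in 1 of the 4 fits that left out a library. The Ctrl count at 2 h became 8 or 1 when replicate 1 or 2 of 0 h was omitted, and 3 or 2 when replicate 1 or 2 of 2 h was. COL5A2 stood at 42.5 and 43.3 CPM in wt at 2 h, between its 0 h and 3 h values, and passed at 2 h in no line.

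Whether the 3 h response differed between lines was tested on the difference itself. No collagen passed for SoF against wt (0% of all genes), Ctrl against wt (0%) or SoF against Ctrl (0.0127%), and DESeq2 called 0 members in each. An unadjusted p under 0.05 was met by 0, 7 and 2 of the 32 members, and by 2.36%, 3.57% and 2.84% of all genes tested. Over 23580 genes, the differences in response also moved with the GC content of the longest transcript, taken up further on. The Spearman correlations were 0.39 for SoF against wt, 0.40 for Ctrl against wt and -0.05 for SoF against Ctrl. For COL1A1 the response in Ctrl exceeded that in wt by 0.73 (SE 0.29, adjusted p 0.982 by edgeR) and for COL5A1 by 0.64 (SE 0.27, adjusted p 0.982). For COL6A3 the differences were 0.32 (SE 0.36) for SoF against wt, 0.53 (SE 0.36) for Ctrl against wt and -0.21 (SE 0.36) for SoF against Ctrl. For COL3A1 they were -0.23 (SE 0.28), -0.17 (SE 0.28) and -0.06 (SE 0.28). With these errors, a call in 1 line and none in another does not show that the lines responded differently.

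Levels over all times were then compared between lines, with 8 libraries each and treatment time ignored, and 30 members were tested. For SoF against wt 1 member passed (background 8.02%), for Ctrl against wt 2 (background 4.77%) and for SoF against Ctrl 1 (background 3.61%). These are 3.33%, 6.67% and 3.33% of the 30 tested, below the background for SoF against wt and near it for the others. The counts moved with single libraries. SoF against wt had 2 calls without wt replicate 2 at 0 h or 2 h, either SoF replicate of 0 h or either SoF replicate of 3 h. It had 3 calls when wt replicate 1 of 1 h or SoF replicate 1 of 2 h was omitted, and 4 when wt replicate 2 of 1 h was. SoF against Ctrl had 0 calls when SoF replicate 2 of 1 h or Ctrl replicate 1 of 2 h was omitted. It had 2 on omitting SoF replicate 1 of 1 h, SoF replicate 2 of 2 h or 3 h, or Ctrl replicate 2 of 0 h or 2 h. COL9A2, a FACIT chain of cartilage, was lower in SoF than in wt. Its lowest, median and highest library held 4.17, 10.3 and 16.8 CPM in wt, 3.44, 4.96 and 6.62 in SoF and 4.08, 6.24 and 9.63 in Ctrl. The ranges overlapped, and the log2 difference of -0.997 (SE 0.23, adjusted p 0.00833 by edgeR) kept its call without any 1 library. The 50 tested genes within 2 Mb had a median difference of 0.05, with 5 called.

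COL7A1 was lower in Ctrl than in wt, with 5.43, 8.37 and 15.7 CPM (lowest, median, highest) in Ctrl against 13.4, 19.5 and 27.6 in wt and 8.35, 15.4 and 19.3 in SoF. The difference was -1.08 (SE 0.21, adjusted p 0.00371 by edgeR) and held without any 1 library. Its neighbourhood moved with it: the 106 tested genes within 2 Mb had a median difference of -0.42, and 39 of them passed, all 39 lower in Ctrl. The part of that shift in the COL7A1 value was not tested.

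COL5A3, the type V chain of muscle and placenta, was higher in Ctrl, with 2.93, 5.61 and 7.24 CPM (lowest, median, highest) against 1.62, 2.74 and 3.35 in wt and 2.10, 2.84 and 6.15 in SoF. The wt and Ctrl ranges overlapped in part, and the difference was 0.96 (SE 0.23, adjusted p 0.0147 by edgeR), held without any 1 library. Its 101 neighbours had a median of -0.02, with 2 called. COL5A3 shares 3.98% of its exon bases with an opposite-strand lncRNA. COL16A1, a FACIT near small fibrils, was lower in SoF than in Ctrl, with 53.4, 66.5 and 87.3 CPM in SoF, 74.9, 92.8 and 121 in Ctrl and 70.6, 82.3 and 121 in wt. The difference of -0.45 (SE 0.11, adjusted p 0.0228 by edgeR) lost its call without replicate 2 of SoF at 1 h, replicate 1 of Ctrl at 2 h or replicate 1 of Ctrl at 3 h. Its 59 neighbours had a median of -0.04, with 1 called.

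COL1A1 was lowest in SoF, at 250, 386 and 606 CPM (lowest, median, highest), against 477, 625.05 and 910 in wt and 329, 624 and 1008 in Ctrl. The differences of -0.69 (SE 0.22) from wt and -0.69 (SE 0.22) from Ctrl missed the threshold, with adjusted p of 0.051 and 0.09 by edgeR. With treatment time as an additive term, which takes the time effect out of the spread, both passed (-0.74, adjusted p 1.35e-05, and -0.68, adjusted p 3.62e-05), and 8, 8 and 7 of 32 members passed in the comparisons of SoF with wt, Ctrl with wt and SoF with Ctrl, where 28.3%, 18% and 12.7% of all genes did. With the GC offset described further on, COL1A1 also passed as lower in SoF than in wt (-0.54, adjusted p 0.00656 by edgeR) and than in Ctrl (-0.59, adjusted p 0.00346). Over all times COL5A1 differed by -0.05 (SE 0.14) and 0.20 (SE 0.14) from wt in SoF and Ctrl, and neither passed.

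NR3C1, the receptor gene, whose reads may come from the introduced copy or the cell's own, also differed between lines. The paper cites reports that U2OS cells make very little GR of their own. NR3C1 held 334, 633 and 1595 CPM (lowest, median, highest) in wt, 1118, 2187 and 6273 in SoF, and 1627, 2858 and 7658 in Ctrl. These ranges also hold changes over time: the SoF libraries had 62354 and 51476 counts at 1 h and 13843 and 13143 at 3 h. These values are of newly made RNA and do not measure receptor protein. The paper states that sorted cells were picked so that nuclear GR protein, seen by antibody staining after dexamethasone, was similar in the lines. The part of receptor RNA or protein level in the collagen differences between lines was not tested.

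**Figure D4:**
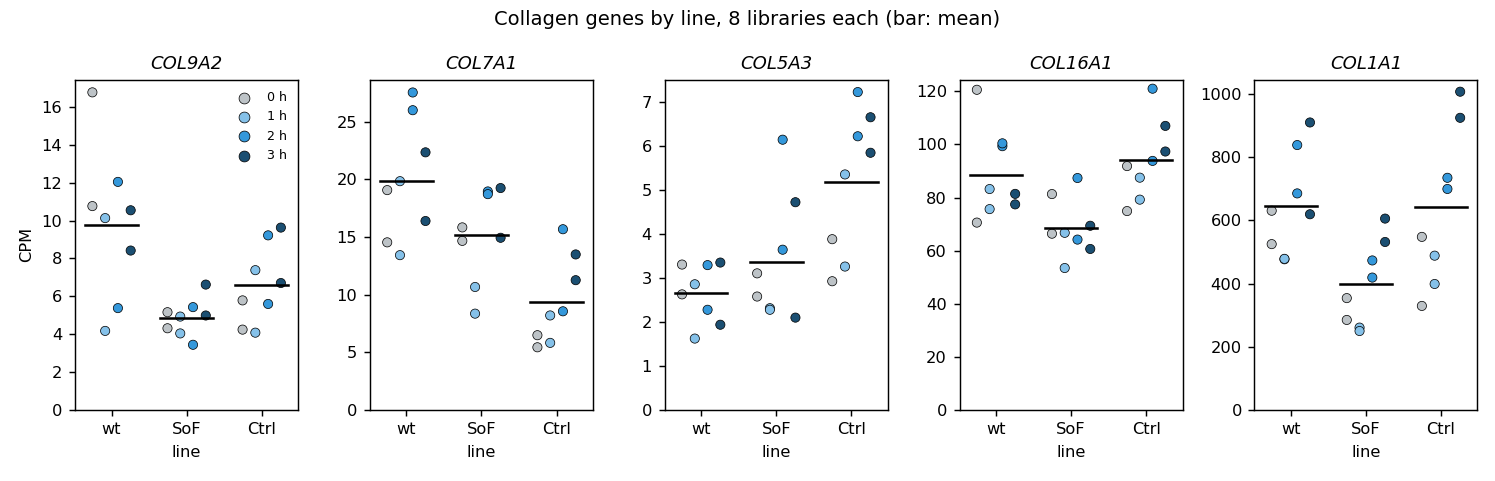
CPM of 5 collagen genes in the 8 libraries of each line, shaded by hours of dexamethasone, with a bar at the mean. COL7A1 is lowest in Ctrl (median 8.37 against 19.5 CPM in wt), COL9A2 and COL1A1 are lowest in SoF, and all ranges overlap in part with those of another line.

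The machinery that makes and handles collagen was read from 7 lists of 51 genes, of which 46 were tested. Averaged over the lines at 3 h, 20 of the 46 rose and 8 fell, or 60.9% called, against 40.3% of all genes (20.9% higher, 19.3% lower). All pathway counts are without the GC offset described further on, which turned the balance of directions among the collagens. Of 15 chain modification genes 9 rose and 1 fell, and of 6 folding and export genes, which include the collagen chaperone SERPINH1, 1 rose and 1 fell. Among 8 propeptide removal genes 3 rose and 1 fell, and among 5 cross-linking genes 2 rose and none fell. Of 4 collagenases 2 were tested and 1 rose and 1 fell, of 7 receptors 3 rose and 3 fell, and of 6 fibril partners 3 were tested and 1 rose and 1 fell.

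The 3 pathway genes with the smallest p in the average were P4HA2, DDR2 and PLOD3. P4HA2, a prolyl hydroxylase subunit, rose by 1.08 (SE 0.09, adjusted p 1.19e-08 by edgeR), and PLOD3, a lysyl hydroxylase, rose by 1.197 (SE 0.12, adjusted p 5.50e-08). DDR2, a receptor tyrosine kinase that binds fibrillar collagen, fell by 0.97 (SE 0.09, adjusted p 1.83e-08). All 3 passed in each line at 3 h: P4HA2 changed by 0.97, 1.34 and 0.91 in wt, SoF and Ctrl, PLOD3 by 0.93, 1.30 and 1.36, and DDR2 by -0.91, -1.03 and -0.98. DDR1, which also binds collagen, rose in all 3 lines as well (0.69, 1.23 and 0.87), as did BMP1, a procollagen C-proteinase (0.83, 1.12 and 1.23).

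Between lines over all times the pathway lists had 2 genes higher and 1 lower in SoF than wt, 1 higher and 2 lower in Ctrl than wt, and 2 higher and 2 lower in SoF than Ctrl. These are 6.52%, 6.52% and 8.7% of the 46 tested, beside 8.02%, 4.77% and 3.61% of all genes. TLL1, a propeptidase of the BMP1 family, was higher in SoF by 1.66 (SE 0.34) than in wt and by 2.31 (SE 0.37) than in Ctrl. It was rare, at 0.106 to 3.32 CPM over all libraries (mean 1.24), so these differences rest on few counts. ITGA11, an integrin that binds type I collagen, was higher than in wt in both SoF (1.203, SE 0.20) and Ctrl (0.79, SE 0.20), and LUM, a proteoglycan of fibrils, was lower (-0.49, SE 0.14, and -0.86, SE 0.14).

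Markers of other cell types were read beside these changes. The summed level of 3 epithelial markers (EPCAM, CDH1, KRT5) was 5.77 to 10.99 CPM at 0 h and 3.23 to 4.75 CPM at 3 h, with 1 of 3 higher and 1 lower by the test. The 2 chondrocyte markers (ACAN, SOX9) summed to 341 to 522 CPM at 0 h and 338 to 491.9 CPM at 3 h, nearly all of it SOX9. ACAN, the cartilage proteoglycan aggrecan, rose by 3.07 (SE 0.18, adjusted p 2.93e-11 by edgeR), from group means of 4.45, 5.44 and 5.04 CPM in wt, SoF and Ctrl at 0 h to 41.3, 49.1 and 37.8 CPM at 3 h, a larger log2 change than that of any collagen tested in the average. The 2 leukocyte markers summed to at most 1.91 CPM at 0 h and 1.02 CPM at 3 h, with PTPRC called lower and CD3E at a median of 0, and the 2 endothelial markers to at most 1.00 and 0.671 CPM. The 7 osteoblast markers summed to 133 to 176 CPM at 0 h and 99.6 to 125 CPM at 3 h, with ALPL called higher and RUNX2 lower. The part of these shifts in the collagen changes was not tested.

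Base composition moved with the results. Over 23580 tested genes, the average log2 change at 3 h had a Spearman correlation of 0.32 with the GC content of the longest transcript (0.12 in wt, 0.34 in SoF and 0.40 in Ctrl), and the genes share their libraries. The 12 rising collagens had a median GC content of 60.8% (41.0% to 66.4%), the 9 falling ones 49.0% (46.3% to 56.1%) and all tested genes 47.7%. When each library's trend with GC content was taken out as an offset, an alternative added after seeing the data, 19 members passed in the average, 8 higher and 11 lower (of all genes 41.2% passed, 20% higher and 21.2% lower). The Ctrl count went from 16 to 11 at 3 h (background 12.8%) and from 5 to 2 at 2 h (background 6.6%). The wt count at 3 h was again 7 (background 14.5%), and the SoF count was again 15 (background 20.6%) but with 6 higher and 9 lower (background 10.9% and 9.63%). In Ctrl COL5A1, COL6A2, COL7A1, COL22A1 and COL27A1 lost their calls at 3 h, and in SoF COL4A2 and COL6A2 did while COL15A1 and COL16A1 gained one.

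COL6A3, COL4A1, COL13A1, COL3A1, COL5A2 and COL4A5 kept their calls in all 3 lines with the offset, with average changes of 2.15, 1.14, 0.92, -1.90, -0.88 and -1.28. COL1A1 kept its average call at 0.47, and COL6A1 at 0.67. COL5A1, COL7A1, COL22A1 and COL27A1, all of high GC content, lost theirs, and the average change of COL5A1 was 0.12, with -0.01 in wt and -0.03 in SoF. COL16A1 (-0.38, adjusted p 0.00309 by edgeR) and COL4A4 (-0.46, adjusted p 0.0453) became called as lower in the average. The lower level of COL16A1 in SoF than in Ctrl, at -0.35, also lost its call with the offset. Between lines, calls were gained by COL1A1 (lower in SoF than in wt and Ctrl), COL27A1 (higher than in wt in SoF, 0.48, and Ctrl, 0.54), COL11A1 (lower in Ctrl than in wt, -0.48) and COL7A1 (higher in SoF than in Ctrl, 0.83).

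**Figure D5:**
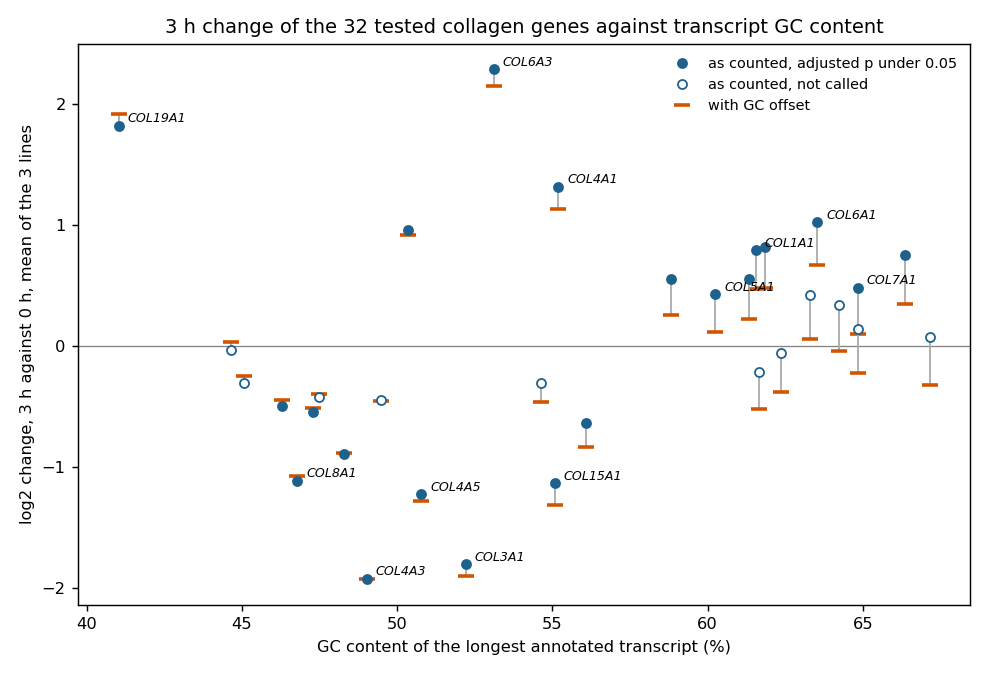
Average log2 change at 3 h against the GC content of the longest transcript for the 32 collagen genes tested, as counted (circles, filled where the adjusted p was under 0.05) and with the GC offset (orange bars). The offset lowers the GC-rich members most, with COL7A1 going from 0.48 to 0.10, and leaves COL3A1 and COL6A3 near -1.90 and 2.15.

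RefSeq promoter windows of 300 bases were found for 32 of the 44 members, as 44 windows in all, and 4 motifs were searched on both strands. The letters ACANNNTGT, the core spacing of a GR binding site, were in 0 of the 44 collagen windows and in 5.37% of all 35116 windows. The AP-1 letters TGANTCA were in 1 window (COL10A1) and in 7.71% of all windows. CCAAT was in 14 windows (31.8%, against 34.6% of all) and TATAAA in 8 (18.2%, against 11.53%). A match or its absence describes only the letters in these windows.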

How the data were processed

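Labelled RNA of 24 libraries was sequenced. According to the submitters' notes, UMI-tools 1.1.2, Trim Galore 0.6.6, STAR 2.7.3a and featureCounts were used with hg38. The authors deposited raw exon counts per gene for GENCODE 39, and these count values were used without change. Gene names came from GENCODE 44. That counting used strand is known only from the title of the deposited table. Totals of 8106036 to 15820806 counts per library limit precision for the rare members. Nothing says that replicates were separate cultures, so p-values measure the spread between these libraries, which may be technical. The paper states that the labelled RNA was captured with replicates handled in pairs. If replicates of the same line and time shared a capture, their spread leaves out variation from one capture to another. Changes over time and differences between lines could then include capture differences, which was not tested.

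The collagen list, the pathway and marker lists and the tests were chosen with earlier results of these data known. Genes were kept by edgeR's filterByExpr (minimum count 10, minimum total 15), and 23651 of the 48707 genes with a count were tested in a model of 12 groups. For line comparisons over all times, 21122 genes were tested in a model of 3 lines. Library sizes were scaled by TMM, and glmQLFit and glmQLFTest (edgeR 4.0.16, R 4.3.3, limma 3.58.1) gave p-values, adjusted by Benjamini-Hochberg over all genes tested. Each SE is the size of the log2 change over the root of its F statistic. The biological coefficient of variation was 14.2% and 24.0% in the 2 models. CPM are counts per TMM-scaled library total.

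COL1A1, COL1A2 and COL5A1 were always named. Others were named if called with a mean of at least 1 CPM (at most 10 per comparison by smallest p), as partner chains of a named gene, or among the 5 highest per kilobase. Pathway genes were named if among the 3 smallest p. Alternatives were DESeq2 1.42.0, its size factors in edgeR, no low-count filter, a replicate block, the libraries of the lines compared only, an additive time term, each library left out, and a GC offset chosen after seeing the data. The code was tested on simulated counts.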

Additional observations from a re-analysis of the deposited data

How the results depend on the processing

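The settings changed single-line counts more than the average over the 3 lines at 3 h, which kept 19 to 23 called collagens on leaving out 1 library and 19 with the GC offset, then 8 higher and 11 lower. The average rests on more libraries than a single line, so leaving out 1 moves it less. Leaving out 1 library gave 0 to 3 calls in wt at 2 h, 3 to 8 in wt at 3 h, 2 to 2 in SoF at 2 h, 6 to 16 in SoF at 3 h, 1 to 8 in Ctrl at 2 h and 7 to 14 in Ctrl at 3 h. It gave 1 to 4 for SoF against wt, 2 to 3 for Ctrl against wt and 0 to 2 for SoF against Ctrl over all times, and 0 at 1 h and for each difference in response. Without the low-count filter the counts were 1 in wt at 1 h, 5 in wt at 2 h, 8 in Ctrl at 2 h and 0 for SoF against Ctrl. DESeq2 gave 2 in wt at 2 h, 4 for SoF against wt and 2 for SoF against Ctrl, and its size factors in edgeR gave 1 in SoF at 2 h and 2 for SoF against wt. The GC offset gave 1 in SoF at 2 h, 2 in Ctrl at 2 h, 3 for SoF against wt, 4 for Ctrl against wt and 2 for SoF against Ctrl, and the additive time term gave 8, 8 and 7 for these lines. Apart from the shares printed above for some of these fits, no share of all genes stands beside these counts. Whether all genes moved likewise under these settings was not tested. Replicate numbers were not taken to pair the libraries, as same-numbered deviations correlated over 0.1 in 21 of 66 pairs of groups and not in every pair (-0.22 to 0.57, median 0.04), though the 3 pairs of 0 h groups correlated at 0.39 to 0.57. A deviation shared by same-numbered 0 h libraries would not average out over the lines, so p-values of the average may be too small. A replicate block moved the count to 2 in wt at 2 h and 3 for SoF against wt, and no other called count by over 1.5 times. COL5A1 turned direction with the GC offset in wt (-0.0139) and SoF (-0.0289) at 3 h. On leaving out 1 library its wt change ran from -0.30 to 0.51, below 0 without wt replicate 2 at 3 h. Differences in response that did not pass also crossed 0 on leaving out 1 library. For SoF against wt they ran from -0.0171 to 0.74 for COL6A3 (below 0 without SoF replicate 1 at 0 h) and from -0.48 to 0.0658 for COL3A1, and for Ctrl against wt from -0.42 to 0.12 for COL3A1 (both above 0 without wt replicate 1 at 3 h). For SoF against Ctrl they ran from -0.73 to 0.014 for COL1A1 (above 0 without Ctrl replicate 2 at 0 h), from -0.54 to 0.22 for COL6A3 (above 0 without SoF replicate 2 at 0 h) and from -0.23 to 0.12 for COL3A1 (0.11 on omitting SoF replicate 2 of 0 h and 0.12 on omitting Ctrl replicate 2 of 3 h). For COL4A1 they ran from -0.29 to 0.26. The value was -0.29 when Ctrl replicate 1 of 0 h was omitted, -0.0421 on omitting Ctrl replicate 2 of 3 h, and -0.00289 on omitting SoF replicate 1 of 0 h. Where not stated, the cause was not tested. Rare members such as COL4A3, COL4A6 and COL19A1 are limited by depth.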
